A study of Mus musculus with 6 samples.

Results

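Phyh and 6 further genes of peroxisomal fatty acid oxidation were examined in mouse leukaemia model cells that carry a guide against Clec12a or a control guide. The 7 genes (Phyh, Hacl1, Amacr, Acaa1a, Hsd17b4, Scp2 and Abcd3) are 7 of the 21515 genes in the deposited table. They were picked as enzymes and transporters of peroxisomal alpha- and beta-oxidation, and the set was proposed because Phyh was higher in Clec12a knockout cells. The set was thus selected on the knockout and control FPKM of Phyh, which are given as a description with no test. The other 6 genes were named for their role in the pathway.

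The cells were C57BL/6 mouse bone marrow cells immortalised with a fusion oncogene, NUP98-NSD1, and with mutant NRAS (NRASG12D). The knockout group held 3 libraries (replicates 1, 4 and 5) of cells given lentiviral Cas9 with the T44 guide. Its target, Clec12a, encodes a myeloid lectin receptor with an inhibitory motif. The control group held 3 libraries (replicates 6, 8 and 9) of cells given the same vector with a guide against bacterial lacZ. Both groups thus carried both oncogenes, Cas9 and the dTomato reporter, and both were stimulated for 48 hours with serum, human interleukin-6, mouse interleukin-3 and mouse stem cell factor. Single cells were sorted and grown up before RNA was taken, so each library may stand for 1 clone. Whether the clones of a group are independent is not stated, so p-values cover only the spread among these libraries, which may be technical.

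Peroxisomes shorten fatty acids that mitochondria handle poorly, namely very long chains, dicarboxylic acids and chains with methyl branches. Phytanic acid, a branched fatty acid from the diet, has a methyl group that blocks beta-oxidation. Alpha-oxidation removes its first carbon, and the product, pristanic acid, then enters peroxisomal beta-oxidation. Phyh hydroxylates phytanoyl-CoA at the start of this route, and loss of the human enzyme causes Refsum disease.

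Phyh lies on the forward strand of chromosome 2 (4919019 to 4938730, GRCm38), and its longest annotated transcript has 1438 bases. Because Phyh is the gene that set the choice, its promoter is shown, next to that of Scp2, the other member whose window holds the nuclear receptor core motif AGGTCA or its reverse complement TGACCT. This motif is a component of the sites bound by PPAR, a receptor family that controls many peroxisomal genes. Each window is a RefSeq promoter of 300 bases (GRCm38.p6), written 5′ to 3′ on the strand of its gene, with the motif in capitals.

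Phyh, chr2:4918746-4919045, forward strand: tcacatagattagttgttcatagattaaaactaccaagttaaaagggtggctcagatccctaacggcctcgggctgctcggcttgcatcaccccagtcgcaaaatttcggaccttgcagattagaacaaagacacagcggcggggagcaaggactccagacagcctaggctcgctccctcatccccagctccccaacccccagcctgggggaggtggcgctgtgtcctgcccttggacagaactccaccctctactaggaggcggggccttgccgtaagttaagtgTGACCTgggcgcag

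Scp2, chr4:108118498-108118797, reverse strand: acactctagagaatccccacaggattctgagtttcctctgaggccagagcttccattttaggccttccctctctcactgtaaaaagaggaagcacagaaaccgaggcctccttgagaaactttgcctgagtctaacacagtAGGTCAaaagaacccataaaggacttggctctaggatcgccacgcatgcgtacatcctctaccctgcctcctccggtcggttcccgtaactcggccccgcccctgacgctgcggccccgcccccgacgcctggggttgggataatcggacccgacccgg

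In the Phyh window the motif lay 36 bases after the RefSeq start site, and in the Scp2 window it began at base -109 relative to the start site. The Scp2 window holds the first base (108118532) of its longest GENCODE transcript, while 2 shorter transcripts begin further upstream. There were 6 windows for 5 of the 7 genes (Phyh, Hacl1, Acaa1a, Scp2 and Abcd3), and 2 of these 5 genes held the motif on either strand. Of 32851 promoter windows of the same length in the table, 16.3% held it. A direct repeat of the motif with 1 base between the copies, searched on both strands and overlapping the single motif, was in none of the 5 and in 0.04% of all windows. The GC box GGGCGG was in the windows of Acaa1a, Hacl1 and Scp2 and in 35.7% of all windows. The CCAAT box was in those of Acaa1a and Hacl1 and in 37.4% of all windows, and the E-box CACGTG was in none of the 5 and in 7.15% of all windows. A match is a description of the letters and no evidence of binding.

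Across the series, FPKM (a fragment count divided by transcript length and by library size) summed to 590211 to 699113 in knockout libraries and to 534440 to 554534 in controls. Depth estimated from the steps between low values was 33600000 to 61000000 fragments. Clec12a itself was at 170, 129 and 94.5 FPKM in knockout libraries, compared with 157, 246 and 280 FPKM in controls, and the groups overlapped (exact permutation test, two-sided, p = 0.2; this design cannot give less than 0.1). Since a Cas9 edit need not lower the level of the transcript, this does not check the labels. Blood cell markers were present (Ptprc at 31.1 to 93.9 FPKM in knockout libraries and 90.5 to 133 in controls), while 4 of 6 mast cell and basophil markers (Cpa3, Fcer1a, Cma1 and Tpsb2) were at 0 in every library. Of the rest of that list, Mcpt8 was at 1.91, 3.08 and 2.48 FPKM in knockout libraries, compared with 5.51, 12.0 and 1.97 FPKM in controls. Ms4a2 was detected in every library but stayed under 1 FPKM. Of 6 listed myeloid progenitor markers, 1 stayed under 1 FPKM in every library, namely Cd34. Spi1 had the highest mean of the list (232 FPKM for knockout cells, 218 FPKM for controls). Kit differed widely among libraries of the same group. Its values were 0.736, 1.18 and 6.66 FPKM in knockout replicates 1, 4 and 5, against 27.6, 8.03 and 0.715 FPKM in control replicates 6, 8 and 9. The 4 markers of liver, an organ rich in peroxisomes, summed to at most 0.143 FPKM in knockout libraries and 0.178 in controls.

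Phyh was 5.29 times as high in knockout cells as in controls. It stood at 92.3, 97.4 and 75.4 FPKM in knockout replicates 1, 4 and 5, against 19.7, 12.2 and 18.2 FPKM in control replicates 6, 8 and 9. The lowest knockout library thus lay well above the highest control, and control replicate 8 was the lowest of all. The means were 88.4 ± 11.5 FPKM in knockout cells and 16.7 ± 3.97 FPKM in controls (SD, n = 3 each). The difference on the log2(FPKM + 1) scale was 2.35 (SE 0.23), which ranked 35 of 9830 tested genes, counted from the highest down. About 844 to 7132 fragments lay behind these values, at the estimated depths and the longest annotated transcript. In bulk RNA, fewer cells of a type and less RNA per cell cannot be told apart.

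**Figure D1:**
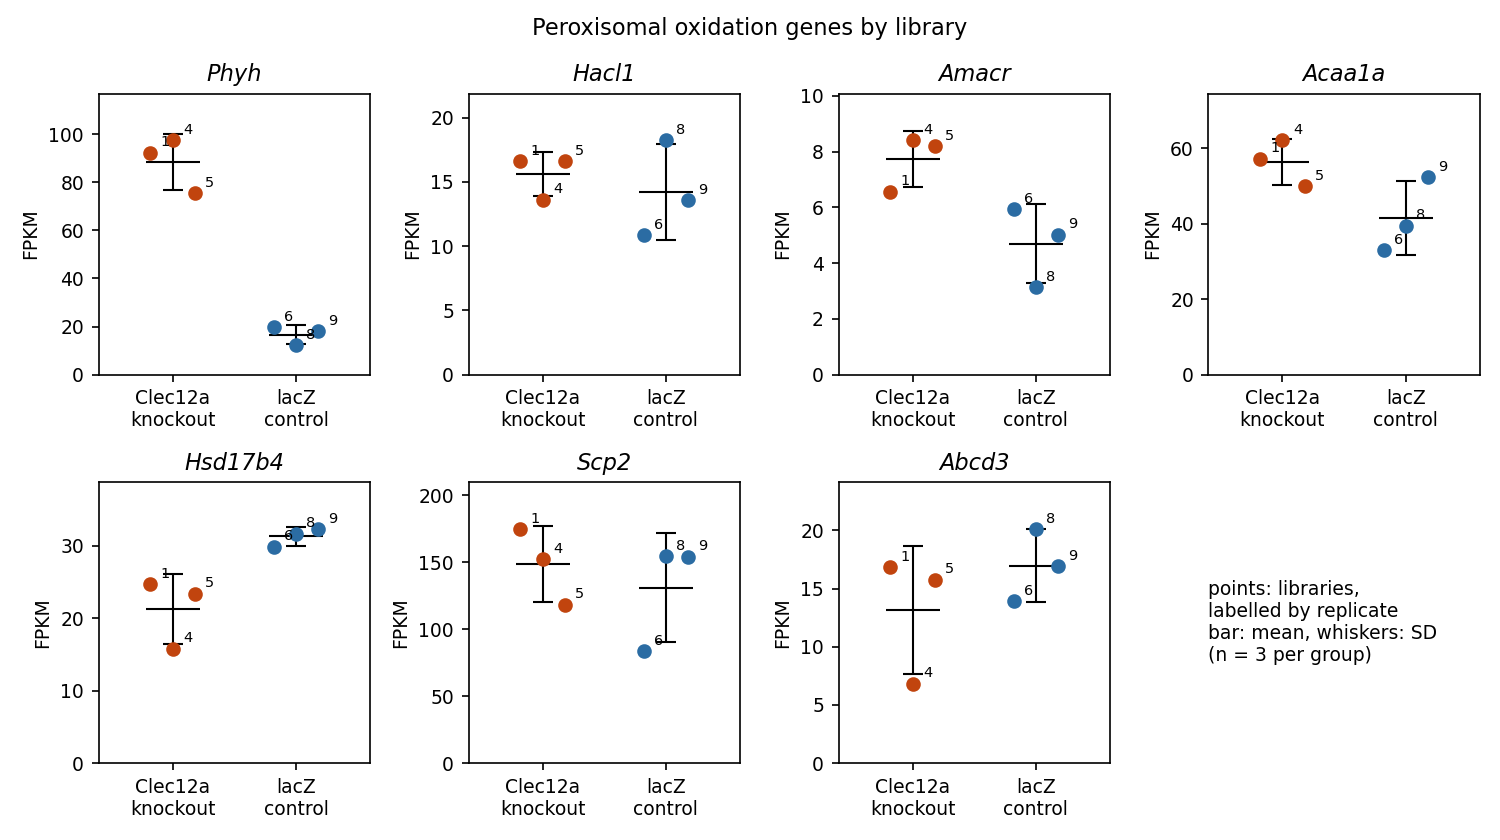
FPKM of the 7 genes (vertical axis, from 0) in each Clec12a knockout and lacZ control library; points are libraries labelled by replicate, bars are means and whiskers are SD (n = 3 each). Phyh sits at 75.4 to 97.4 FPKM in knockout libraries, above the 12.2 to 19.7 FPKM of controls; among the other 6 genes, only Amacr and Hsd17b4 have groups that do not overlap.

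Transcript length went with the guide. Genes whose longest transcript has at most 1500 bases, the class of Phyh, had median deviations from their gene means of 0.02, 0.54 and 0.03 (log2) in knockout replicates 1, 4 and 5. These medians were -0.16, -0.16 and -0.21 in control replicates 6, 8 and 9. The 1199 genes of that class had a median difference of 0.36, and 2045 genes with transcripts over 5000 bases had a median of -0.29. In these 2 classes, 18 and 2 genes had a larger difference than Phyh. With each library corrected for transcript length and GC content, the Phyh difference was 2.08. Markers of mature myeloid cells did not move in a single direction. The 8 neutrophil markers summed to 372, 149 and 210 FPKM in knockout libraries, compared with 88.6, 243 and 239 FPKM in controls, and these sums overlapped. Mmp8 alone made up 80.7, 142 and 218 FPKM of the control sums, so the overlap says little about the other markers. Of the 7 tested, 2 rose (limma), where 1.38% of all tested genes were higher: Ly6g by a log2 difference of 3.53 and Retnlg by 3.19. The other 5 did not pass. Of these, Cxcr2, Ngp and Mmp9 had higher values (log2 difference 1.10, 1.01 and 0.46), while Mmp8 and Ltf had lower values (-0.49 each). In all, 5 of the 7 had higher and 2 lower values, and 3 had an unadjusted p under 0.05 by limma, against 27.9% of all tested genes. The 6 monocyte and macrophage markers summed to 2568 to 3236 FPKM in knockout libraries, compared with 1446 to 2396 in controls. These sums did not overlap, and most of each was Ly6c2. Of the 4 tested none passed the limma test and 3 had an unadjusted p under 0.05, against 27.9% of all tested genes. Ly6c2 and Cd14 had higher values (log2 difference 0.69 and 2.13), while Ccr2 and Adgre1 had lower values (-1.84 and -0.55). Cd14 and Ccr2 lay near the threshold (limma, adjusted p = 0.0513 and 0.0520). The part of these cell type markers in the level of Phyh was not tested.

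Hacl1 cleaves the hydroxylated product of Phyh in the next step of alpha-oxidation. It lies on chromosome 14 (31598730 to 31641286, GRCm38, reverse strand). It stood at 16.6, 13.6 and 16.6 FPKM in knockout libraries, compared with 10.9, 18.2 and 13.6 FPKM in controls. The control values enclosed all 3 knockout values. The log2 difference was 0.15 (SE 0.24, 95% interval -0.39 to 0.69; limma, adjusted p = 0.694), so a rise of the size seen for Phyh lay outside the interval. The gene model Gm49387, on the same strand, shares 31.1% of the exon bases of Hacl1, so its level is uncertain.

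Amacr converts branched acyl-CoAs into the mirror form that beta-oxidation can use. It lies on chromosome 15 (10981756 to 10996626, forward strand) and had the lowest level of the 7 genes in both groups. Its levels were 6.57, 8.40 and 8.19 FPKM in knockout libraries, compared with 5.94, 3.14 and 5.02 FPKM in controls. Every knockout library was above every control, by a narrow margin between knockout replicate 1 and control replicate 6. The means were 7.72 ± 1.004 FPKM in knockout cells and 4.70 ± 1.43 FPKM in controls (SD, n = 3 each). The log2 difference of 0.64 (SE 0.25, 95% interval 0.06 to 1.22) did not pass the threshold of 0.05 (limma, adjusted p = 0.150).

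Hsd17b4 encodes the D-bifunctional protein, which hydrates and dehydrogenates branched and very long acyl-CoAs in peroxisomal beta-oxidation. It lies on chromosome 18 (50128201 to 50196269, forward strand). Its levels were 24.7, 15.8 and 23.4 FPKM in knockout libraries, compared with 29.8, 31.6 and 32.3 FPKM in controls. All 3 knockout values lay below all 3 control values, which spanned a narrow range. The means were 21.3 ± 4.80 FPKM in knockout cells and 31.3 ± 1.28 FPKM in controls (SD, n = 3 each). The log2 difference of -0.56 (SE 0.22, 95% interval -1.05 to -0.07) did not pass (limma, adjusted p = 0.143).

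Acaa1a and Scp2 encode thiolases, which make the last cut of each round of peroxisomal beta-oxidation. Scp2 acts on branched chains through its long form, and its short form carries sterols. Acaa1a (chromosome 9, 119339676 to 119350299, forward strand) was at 57.3, 62.1 and 50.0 FPKM in knockout libraries, compared with 33.0, 39.5 and 52.3 FPKM in controls. Knockout replicate 5 lay just under control replicate 9, so the groups overlapped. The log2 difference was 0.45 (SE 0.21, 95% interval -0.04 to 0.94; limma, adjusted p = 0.203). Its paralog Acaa1b, on the same chromosome, was at 16.5, 11.3 and 10.0 FPKM in knockout libraries, compared with 5.43, 8.63 and 20.5 FPKM in controls. Reads of such close copies may be split between them by the counting, so both levels are uncertain. Scp2 (chromosome 4, 108043839 to 108144998, reverse strand) was at 175, 152 and 118 FPKM in knockout libraries, compared with 83.7, 155 and 154 FPKM in controls. Control replicate 6 was the lowest and the other libraries were mixed between the groups. The log2 difference was 0.22 (SE 0.28, 95% interval -0.42 to 0.85; limma, adjusted p = 0.622).

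Abcd3 encodes an ATP-driven transporter of the peroxisomal membrane that takes in branched acyl-CoAs and bile acid intermediates. It lies on chromosome 3 (121758774 to 121815302, reverse strand). Its levels were 16.9, 6.84 and 15.8 FPKM in knockout libraries, compared with 13.9, 20.1 and 16.9 FPKM in controls. Knockout replicate 4 stood far below the rest, and the other knockout libraries lay within the control range. The log2 difference was -0.42 (SE 0.33, 95% interval -1.18 to 0.34; limma, adjusted p = 0.416), and without knockout replicate 4 it was -0.04.

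All 7 genes passed the filter on low values (at least 1 FPKM in at least 3 libraries), and each was above 1 FPKM in all 6 libraries. Of the 6 genes other than Phyh, none passed the limma test over all genes, where 1.90% of the 9830 tested genes did (187, of which 136 or 1.38% were higher and 51 or 0.519% lower in knockout cells). At an unadjusted p under 0.05 there were 2 of the 6, Amacr higher and Hsd17b4 lower, where 27.9% of all tested genes passed (12.0% higher and 15.9% lower). Groups that did not overlap were seen for the same 2 of 6 genes, against 36.3% of all tested genes (14.5% higher and 21.8% lower). The counts for these 6 genes are thus near the background. Their median log2 difference was 0.18, and that of all tested genes was -0.06. With every library scaled to the same total, the median of all genes was -0.24, and 59.2% of the 120 genes that passed were higher, against 72.7% of the 187.

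**Figure D2:**
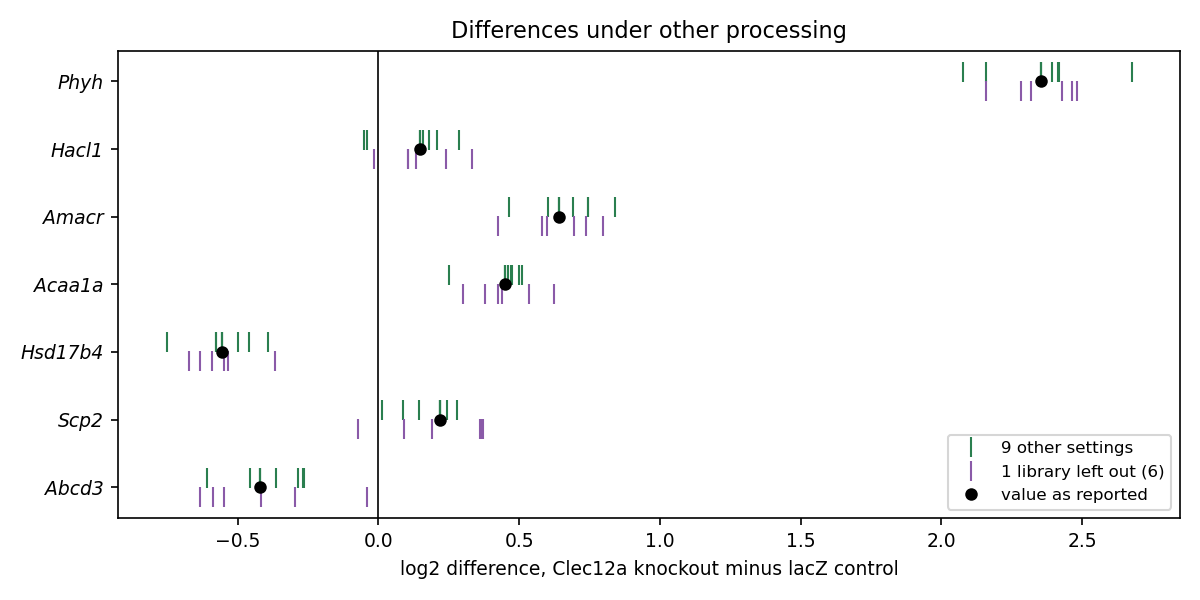
Log2 difference (knockout minus control, horizontal axis) of each of the 7 genes in the test as described (point) and under 15 alternatives (ticks), 6 of which leave out 1 library. Phyh, which chose the set, lies between 2.08 and 2.68. Amacr stays above 0 and Hsd17b4 and Abcd3 below it, while Hacl1 and Scp2 have ticks on both sides of 0.

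The order of the levels differed between the groups in the place of Phyh, and Hacl1 and Abcd3 also changed places. Phyh was chosen for being higher in knockout cells, so its rank, share and percentile below restate that choice and are a description. In knockout cells the order by mean FPKM was Scp2, Phyh, Acaa1a, Hsd17b4, Hacl1, Abcd3 and Amacr. Neighbours in this order had separate ranges down to Acaa1a and Hsd17b4. Below them, the range of Hsd17b4 met that of Hacl1, and the ranges of Hacl1 and Abcd3, and of Abcd3 and Amacr, also met. In controls the order was Scp2, Acaa1a, Hsd17b4, Abcd3, Phyh, Hacl1 and Amacr, and among neighbours the ranges of Abcd3 and Phyh, and of Phyh and Hacl1, met. Phyh ranked 2 among the 7 in every knockout library, and it ranked 4, 6 and 4 in control replicates 6, 8 and 9. Its share of the summed FPKM of the 7 genes was 23.7%, 27.3% and 24.5% in knockout libraries and 10.00%, 4.36% and 6.23% in controls. Without Phyh, the other 6 genes summed to 297, 259 and 232 FPKM in knockout libraries, compared with 177, 267 and 274 FPKM in controls, and these sums overlapped. Among all tested genes, Phyh stood at percentile 84.6 to 86.6 of the levels in knockout libraries and at 42.8 to 54.6 in controls.

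The members also varied among replicates in different ways. The coefficient of variation of Phyh was 13.0% in knockout cells and 23.8% in controls. It was largest for Abcd3 in knockout cells (41.8%) and for Scp2 in controls (31.2%), and smallest for Hsd17b4 in controls (4.08%). Knockout replicate 4 was the highest of its group for Phyh, Amacr and Acaa1a and the lowest for Hacl1, Hsd17b4 and Abcd3. The same library had the highest median for short transcripts and the lowest for transcripts over 5000 bases (-0.33 log2, against -0.02 and -0.11 in knockout replicates 1 and 5 and 0.12 to 0.18 in controls). Over the 6 libraries, the Pearson correlation of log2(FPKM + 1) with Phyh was 0.87 for Amacr, 0.74 for Acaa1a, 0.25 for Scp2, 0.15 for Hacl1, -0.55 for Abcd3 and -0.84 for Hsd17b4. These describe 6 libraries that the labels place in 2 groups, the values of a library share its depth and scaling, and no p is given. Over all tested genes, some libraries correlated more with a library of the other group than with the farthest of their own. This was so for knockout replicates 1 and 5 and control replicates 6 and 9, and not for knockout replicate 4 and control replicate 8.

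**Figure D3:**
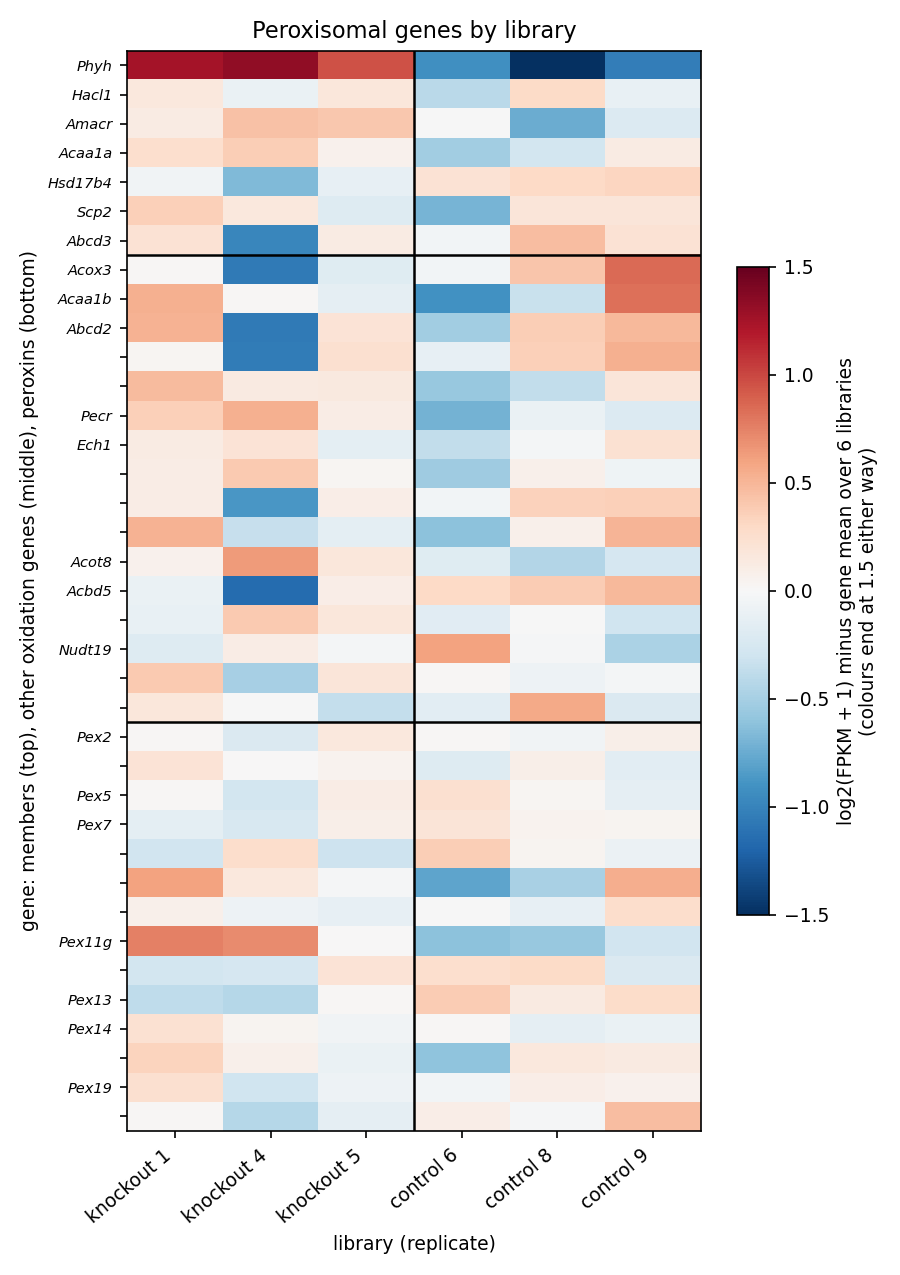
Deviation of log2(FPKM + 1) from the mean of each gene over 6 libraries (colour) for the 7 members, other tested peroxisomal oxidation genes and tested peroxins (a few are not shown, and rows of genes not named in the text have no label), with 3 knockout libraries left and 3 control libraries right. Phyh is high in all 3 knockout libraries and low in all 3 controls, while many rows, such as Abcd3, are lowest in knockout replicate 4.

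Other enzymes and carriers of peroxisomal oxidation showed no common direction. Of 25 listed genes 18 were tested, none passed the limma test, and 9 had higher and 9 lower values (median log2 difference -0.02). At an unadjusted p under 0.05 there were 5 of the 18, against 27.9% of all tested genes. Among the 5 were Pecr and Acot8, with higher values, and Acox3 and Acbd5, with lower values. Abcd2, a transporter of very long chain acyl-CoAs, was at 178, 58.8 and 142 FPKM in knockout libraries, compared with 85.7, 160 and 173 FPKM in controls, with knockout replicate 4 lowest (limma, adjusted p = 0.750). Ech1, an isomerase of unsaturated acyl-CoAs, averaged 207 ± 25.8 FPKM in knockout cells and 193 ± 39.35 FPKM in controls (SD, n = 3 each; limma, adjusted p = 0.744). Nudt19, a coenzyme A diphosphatase, averaged 38.1 ± 4.13 FPKM in knockout cells and 41.8 ± 16.1 FPKM in controls (SD, n = 3 each; limma, adjusted p = 0.886). Ehhadh, the other bifunctional enzyme of the organelle, was at most at 0.0099 FPKM in knockout libraries and at most at 0.0145 FPKM in controls.

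Peroxins, which build the organelle and import its proteins, did not pass either. Of 16 listed genes 15 were tested, and 5 had higher and 10 lower values (median log2 difference -0.09). For 3 of the 15 (among them Pex11g higher and Pex13 lower) the unadjusted p was under 0.05 by limma, against 27.9% of all tested genes. Phyh and the thiolase Acaa1a enter peroxisomes through the receptor Pex7, and most other matrix enzymes through Pex5. Pex7 was at 29.9, 27.9 and 35.5 FPKM in knockout libraries, compared with 38.2, 34.6 and 34.3 FPKM in controls (log2 difference -0.20, 95% interval -0.61 to 0.21; limma, adjusted p = 0.481). Pex5 was at 20.5, 16.6 and 21.9 FPKM in knockout libraries, compared with 24.1, 20.6 and 18.3 FPKM in controls (log2 difference -0.09, 95% interval -0.56 to 0.38; limma, adjusted p = 0.789). The groups overlapped for both receptors, and neither interval reached a log2 difference of 1 in either direction. The most abundant peroxins also overlapped: Pex19, a chaperone of membrane proteins, averaged 70.9 ± 13.7 FPKM in knockout cells and 74.4 ± 4.04 FPKM in controls (SD, n = 3 each). Pex2 averaged 57.2 ± 7.34 FPKM in knockout cells and 58.2 ± 2.92 FPKM in controls, and Pex14 48.8 ± 5.04 FPKM in knockout cells and 43.8 ± 2.55 FPKM in controls (SD, n = 3 each). Pex11g, of the family that divides peroxisomes and named here with its values known, was at 12.9, 12.3 and 7.21 FPKM in knockout libraries, compared with 4.35, 4.54 and 5.68 FPKM in controls (limma, adjusted p = 0.0816).

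**Figure D4:**
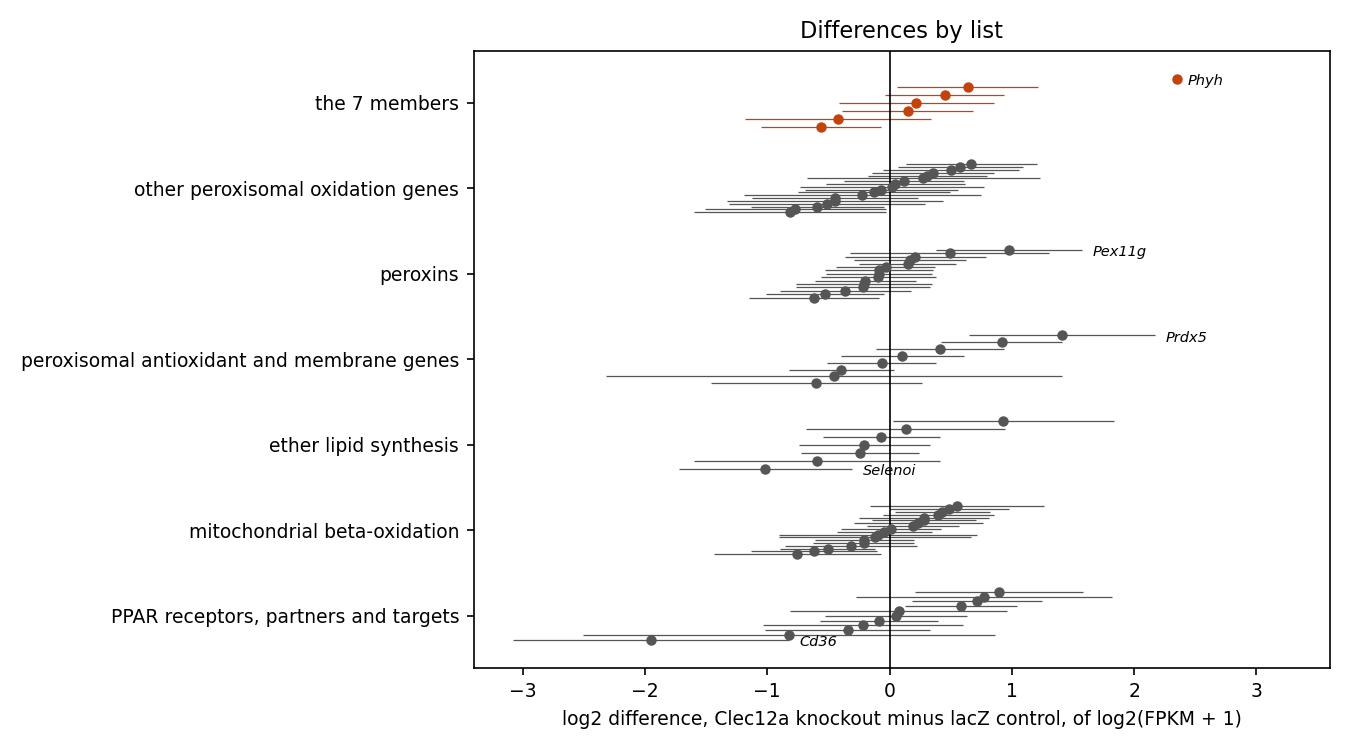
Log2 difference (knockout minus control, log2(FPKM + 1) scale, horizontal axis) of each listed gene that passed the filter, with its 95% interval for all but Phyh, which is drawn as a point alone because it chose the set. Phyh stands at 2.35 and the other 6 members lie between -0.56 and 0.64; among the related genes, Prdx5 (1.41) and Cd36 (-1.95) lie farthest out.

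Peroxide-removing and membrane genes of the organelle held a few of the larger values. Of 8 genes tested none passed the limma test, and the median log2 difference was 0.02. An unadjusted p under 0.05 was seen for 2 of the 8, against 27.9% of all tested genes. Prdx5, a peroxiredoxin of peroxisomes, mitochondria and cytosol, was at 1826, 2264 and 1166 FPKM in knockout libraries, compared with 463, 635 and 871 FPKM in controls. The groups did not overlap, and the log2 difference was 1.41 (SE 0.33; limma, adjusted p = 0.0662). Catalase (Cat), which breaks down the hydrogen peroxide made by the oxidases, was at 48.1, 38.4 and 49.6 FPKM in knockout libraries, compared with 52.6, 64.6 and 62.3 FPKM in controls. It was lower in each knockout library than in each control, and did not pass (log2 difference -0.39, SE 0.19; limma, adjusted p = 0.204). The membrane channel gene Pxmp2, named after its values were seen, was at 7.71, 9.23 and 6.77 FPKM in knockout libraries, compared with 4.33, 3.54 and 3.25 FPKM in controls (limma, adjusted p = 0.0659). Slc25a17, a carrier of coenzyme A and other cofactors, averaged 59.2 ± 9.87 FPKM in knockout cells and 61.6 ± 6.75 FPKM in controls (SD, n = 3 each; limma, adjusted p = 0.851).

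Ether lipid synthesis, which begins in peroxisomes, was measured by 7 tested genes. None passed the limma test, and the median log2 difference was -0.21. An unadjusted p under 0.05 was seen for 2 of the 7 (Tmem189 higher, Selenoi lower), against 27.9% of all tested genes. Gnpat, the first acyltransferase of the route, averaged 51.0 ± 5.64 FPKM in knockout cells and 61.3 ± 13.2 FPKM in controls (SD, n = 3 each; limma, adjusted p = 0.461). Far1, which makes the fatty alcohol, was at 62.3, 16.7 and 57.0 FPKM in knockout libraries, compared with 70.3, 57.0 and 52.9 FPKM in controls, with knockout replicate 4 far below the rest. Selenoi, an ethanolamine phosphotransferase, was at 11.0, 5.07 and 12.3 FPKM in knockout libraries, compared with 16.4, 21.2 and 19.6 FPKM in controls (limma, adjusted p = 0.0976).

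Mitochondrial beta-oxidation and the PPAR genes gave the same picture. Of 18 tested mitochondrial genes none passed the limma test, and 9 had higher and 9 lower values (median log2 difference -0.02). For 5 of the 18 (Acadl and Eci1 higher, Cpt1a, Acadm and Hadhb lower) the unadjusted p was under 0.05, against 27.9% of all tested genes. The electron transfer flavoprotein genes averaged 457.5 ± 114 FPKM in knockout cells and 371 ± 44.7 FPKM in controls for Etfb (SD, n = 3 each). For Etfa the means were 196 ± 23.3 FPKM in knockout cells and 194 ± 10.6 FPKM in controls (SD, n = 3 each). The thiolase gene Acaa2 averaged 71.1 ± 5.49 FPKM in knockout cells and 73.2 ± 5.28 FPKM in controls (SD, n = 3 each). Of 11 tested genes of the PPAR list none passed the limma test. For 4 of the 11 (Rxra, Acot2 and Fabp5 higher, Cd36 lower) the unadjusted p was under 0.05, against 27.9% of all tested genes. Ppara itself was under 1 FPKM in every library. The other receptors, Pparg and Ppard, were named after their values were seen. Levels of Pparg spread widely within both groups. They read 34.6, 7.13 and 20.5 FPKM for the knockout libraries, against 9.02, 58.9 and 56.4 FPKM for the controls. The groups overlapped, and Pparg did not pass (log2 difference -0.82, SE 0.74; limma, adjusted p = 0.475). Ppard had means of 1.85 FPKM for knockout cells and 1.70 FPKM for controls (limma, adjusted p = 0.905). Plin2, which coats lipid droplets, was at 1656, 1024 and 1277 FPKM in knockout libraries, compared with 348, 1005 and 1244 FPKM in controls (limma, adjusted p = 0.295). Acot1, an acyl-CoA thioesterase, averaged 45.0 ± 6.20 FPKM in knockout cells and 57.0 ± 26.1 FPKM in controls (SD, n = 3 each; limma, adjusted p = 0.709). Fabp5, a fatty acid binding protein, averaged 57.6 ± 10.8 FPKM in knockout cells and 37.8 ± 3.81 FPKM in controls (SD, n = 3 each; limma, adjusted p = 0.118). The fatty acid receptor gene Cd36, named after its values were seen, was at 0.997, 0.122 and 1.39 FPKM in knockout libraries, compared with 2.03, 7.96 and 10.4 FPKM in controls. Its groups did not overlap, and it did not pass (log2 difference -1.95, SE 0.50; limma, adjusted p = 0.0748).

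Over all 6 lists of related genes, 77 were tested and none passed the limma test, against the 1.90% that passed among all tested genes. At an unadjusted p under 0.05 there were 21 of the 77 (27.3%, against 27.9% of all tested genes), and the groups did not overlap for 23 (29.9%, against 36.3%).

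The genes beside Phyh on chromosome 2 were not higher in knockout cells. The nearest tested gene before it, Sephs1 (4881564 to 4910557), was at 37.7, 25.3 and 29.4 FPKM in knockout libraries, compared with 38.9, 34.7 and 34.2 FPKM in controls (log2 difference -0.23; limma, adjusted p = 0.463). The nearest tested gene after it, the replication gene Mcm10 (4989714 to 5012791), was at 21.9, 19.8 and 18.3 FPKM in knockout libraries, compared with 32.3, 30.6 and 20.3 FPKM in controls (log2 difference -0.43; limma, adjusted p = 0.239). Among 18 tested genes within 2 Mb on either side, the median log2 difference was -0.16. At an unadjusted p under 0.05 there were 4 of the 18 by limma, against 27.9% of all tested genes. After adjustment 1 of the 18 passed, against 1.90% of all tested genes. That gene was Echdc3, which encodes a protein with an enoyl-CoA hydratase domain and is named here with its values known. It rose, at 8.32, 8.91 and 6.16 FPKM in knockout libraries, compared with 2.43, 2.18 and 1.74 FPKM in controls (log2 difference 1.49, SE 0.22; limma, adjusted p = 0.0215).

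The genes most like Phyh over the 6 libraries had smaller differences between the groups. By Pearson correlation of log2(FPKM + 1) over 6 libraries, and leaving out the other members and unnamed gene models, the closest were Pyroxd2 (0.999), Tcta (0.998), Prdx6 (0.998), Apba3 (0.996) and Klf7 (0.994). Their log2 differences were 1.01, 0.50, 0.93, 0.40 and 1.54. Prdx6, a peroxiredoxin that also acts on phospholipids, was at 1220, 1247 and 1129 FPKM in knockout libraries, compared with 687, 539 and 664 FPKM in controls. Pyroxd2 was at 10.7, 11.3 and 9.61 FPKM in knockout libraries, compared with 5.19, 4.11 and 4.91 FPKM in controls. By correlation of the deviations from the group means over 6 libraries, the closest were Tmem115 (0.994), Egln2 (0.992), Prdx6 (0.992), Nsmf (0.986) and Pyroxd2 (0.985). Prdx6 and Pyroxd2 were in both groups of 5. The correlation of log2 values takes in the difference between the groups for which Phyh was chosen, so it favours genes higher in knockout cells. A smaller difference than that of a gene chosen for its difference is no finding. With 6 libraries and 9830 genes some close matches occur in any such search, so these are a description.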

How the data were processed

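RNA-seq of 3 Clec12a knockout and 3 lacZ control libraries was used, with groups taken from the sample labels and columns matched by title. The authors deposited FPKM in 1 table, with genes named by symbol. Tools listed per the submitters' processing notes are FastQC and STAR 2.5.2b, with the build mm10; the counting tool, annotation, filters and strand use were not given in the sources used here. Since FPKM corrects for length and total only, a shift in a few abundant genes or in fragment length moves many values.

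Depth was estimated from 4154 genes with 1 annotated transcript, where FPKM times length should be whole multiples of 1 fragment; of the low values (up to 5 fragments), 62.7% to 70.0% came within 0.1 of whole, where chance gives 20.0%, so depths are estimates and no count test was run. Symbols were matched to GENCODE M21 (21414 by symbol, 75 by synonym, 26 unmatched).

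Genes with at least 1 FPKM in at least 3 libraries (9830) were tested as log2(FPKM + 1) with limma 3.58.1 in R 4.3.3 (intensity trend, two-sided, Benjamini-Hochberg over all tested genes, threshold 0.05). Differences are knockout minus control, and this scale understates changes of low genes. Other computations used Python 3.11.15 with pandas 2.3.3.

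The members and lists were chosen with earlier results of these data known. Named were the members; in each list genes past the threshold and the 3 highest by mean; Acaa1b, Pex5 and Pex7; the 5 genes most like Phyh by each measure; its neighbours; and Clec12a. Any other gene, such as those listed for an unadjusted p, was named after its values were seen. A few genes that the rule or the lists hold are not reported here. Alternatives were another pseudocount, 2 other filters, 3 other scalings, no trend, array weights, a length and GC correction, and leaving out each library.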

Additional observations from a re-analysis of the deposited data

How the results depend on the processing

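Over the 15 alternatives the Phyh difference was 2.16 to 2.48 with 1 library left out and 2.08 to 2.68 otherwise. Phyh was chosen for being higher and its groups lie far apart, so its sign could not be expected to turn. These ranges are a description and no support. The 2.68 came with array weights, which gave control replicate 8 a weight of 7.21 and knockout replicate 4 a weight of 0.207. Array weights also passed 4154 of all genes, 3 of the 6 other members (Amacr, Acaa1a and Hsd17b4), 4 other peroxisomal oxidation genes, 4 peroxins and 8 mitochondrial genes; under the other 14 alternatives these 4 counts stayed at 0, and of 77 related genes only Cd36 passed, without control replicate 6 (adjusted p = 0.0250). All genes past the threshold numbered 187, but 23 without the filter, 97 at a mean of at least 5 FPKM, 120 with equal totals and 20 to 197 with 1 library left out (20 or 37 if knockout replicate 4 or 1 is dropped, 92 or 25 if control replicate 6 or 8 is). Hacl1 turned to lower with equal totals (-0.0408) and array weights (-0.0516). With 1 library left out Hacl1 ranged from -0.0164 to 0.332 and Scp2 from -0.0737 to 0.371, both below 0 when control replicate 6 was the one left out. The cause of these shifts was not tested. No paired analysis was possible because the groups share no replicate number. The lowest member value, Amacr in control replicate 8, rests on about 389 estimated fragments, so counting error is small beside the spread between libraries.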

Other observations

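A few peroxisomal genes were too low for the test. Acox2, an oxidase of branched acyl-CoAs and bile acid intermediates, was at 1.82, 0.747 and 0.949 FPKM in knockout libraries, compared with 0.265, 0.680 and 0.247 FPKM in controls, so every knockout library was above every control. Mlycd, which degrades malonyl-CoA, was at 2.53, 2.95 and 0.618 FPKM in knockout libraries, compared with 0.478, 0.493 and 0.851 FPKM in controls. Pex6, an ATPase that recycles the import receptor, was at 1.31, 2.51 and 0.816 FPKM in knockout libraries, compared with 0.751, 0.643 and 0.821 FPKM in controls. The groups overlapped for Mlycd and Pex6. Other listed genes too low for the test, namely Slc27a2, Acot4, Hao1 and Hao2, also had groups that overlapped. Among all tested genes, 14.5% had every knockout library above every control. Acox2, Mlycd and Pex6 were named after their values were seen, and their differences were not tested.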
